A study of Mus musculus with 4 samples.

Results

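The clustered histone genes encode the core histones H2A, H2B, H3 and H4 and the linker histone H1, and lie in the Hist1, Hist2, Hist3 and Hist4 clusters of the mouse genome. Members were taken as protein-coding genes whose GENCODE M21 symbol starts with Hist1h, Hist2h, Hist3h or Hist4h and were selected on their mean over the 4 libraries, which had to be at least 1 TPM (a transcript level scaled by transcript length and library total). This gave 55 of the 22809 genes in the table: 5 of the H1 family, 13 of H2A, 14 of H2B, 10 of H3 and 13 of H4. The annotation holds 67 such genes, and the other 12 were not analysed here (Hist1h1t, Hist1h2aa, Hist1h2ao, Hist1h2ap, Hist1h2ba, Hist1h2bq, Hist1h2br, Hist2h2aa1, Hist2h2aa2, Hist2h2bb, Hist2h3b and Hist2h3c1). No gene of the table that met the name rule fell below the 1 TPM limit. The members nearest to it were Hist2h3c2 with a mean of 1.10 TPM, Hist1h2ac with 1.24 TPM and Hist1h2an with 1.87 TPM. The members were thus chosen by mean TPM, which is given as a description only. For 3 of the 55 (Hist1h2ac, Hist1h2ag and Hist1h3d) the control mean was below 1 TPM, so that they entered through the HDAC KO libraries, and for Hist2h3c2 the HDAC KO mean was below 1 TPM.

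Poly(A) RNA was sequenced from glomeruli, the filtering units of the kidney, taken from mice at 3 weeks of age. Of the 4 libraries, 2 came from controls given as wild type (WT) and 2 from mice labelled HDAC KO, in which Hdac1 and Hdac2 are said to be deleted only in the podocytes that cover the glomerular capillaries. Each library pooled 2 mice, so that a p-value here measures the spread between 2 pools per group, and neither the promoter that drove the deletion nor its efficiency is given in the sources used here. Hdac1 and Hdac2 are enzymes that take acetyl groups off histone tails, and whole glomeruli also hold endothelial, mesangial and blood-derived cells.

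Replication-dependent histone genes are transcribed in S phase, when newly made DNA has to be packaged. Their mRNAs carry no introns and usually end in a short stem-loop in place of a poly(A) tail, which the stem-loop binding protein (Slbp) holds during processing, export and translation. Some of these genes also make polyadenylated transcripts in cells that have stopped dividing, and a library made from poly(A) RNA samples the tailless form incompletely. How much of each value came from tailed and how much from tailless transcripts was not tested.

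The stem-loop is the feature that sets these mRNAs apart, and it was searched for in the GENCODE M21 transcripts. A 16-base stem-loop was present in the annotated transcript of 40 of the 55 members and in 0.0503% of 21884 other protein-coding genes. The remaining 15 models held no match, and 13 of them are short models of 312 to 743 bases. A stem-loop past the end of a model could not be looked for. The shown members are the ones that carry the main results below, and capitals mark the stem-loop, written 5′ to 3′ with up to 5 bases on each side.
Hist1h1c: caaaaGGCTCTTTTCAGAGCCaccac
Hist1h2bg: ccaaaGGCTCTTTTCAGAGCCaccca
Hist1h2bb: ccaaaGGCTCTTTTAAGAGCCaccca
Hist1h3b: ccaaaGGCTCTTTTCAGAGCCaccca
Hist1h3e: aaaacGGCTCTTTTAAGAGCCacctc
Hist1h4n: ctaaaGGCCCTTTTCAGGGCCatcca
Hist1h4h: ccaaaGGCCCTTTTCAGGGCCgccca
Hist1h4b: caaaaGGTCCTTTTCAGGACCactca
The core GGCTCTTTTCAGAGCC occurred in 21 members, 3 of H1, 6 of H2A, 8 of H2B and 4 of H3. All 12 H4 models with a stem-loop had another stem: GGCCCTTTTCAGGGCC in 7, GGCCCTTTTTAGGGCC in 2, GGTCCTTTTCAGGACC in 2 and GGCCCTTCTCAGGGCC in 1. Hist1h4n and Hist1h4h, which share the same core, lay far apart in the comparison of the groups.

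Clustered histone genes were mostly higher in the HDAC KO glomeruli. Their summed level was 902 and 1097 TPM in the controls against 1713 and 1775 TPM in the HDAC KO libraries. Both HDAC KO libraries lay above both controls for 45 of the 55 members (81.8%), against 36.7% of the 18612 genes tested, and both lay below for 4 (7.27%), against 14.3%. The groups overlapped for the other 6. The median difference of the members was 1.28 on the log2(TPM + 1) scale, from -1.13 to 2.65, while the median of all tested genes was 0.17. A difference of at least 1 was measured for 34 members (61.8%), against 8.05% of all tested genes. Without the 4 members whose mean was below 1 TPM in either group, 42 of 51 lay above both controls, 3 lay below, 32 had a difference of at least 1, and the median was 1.28. A pseudocount of 1 understates the change of genes with low levels.

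No member passed the test across all genes (limma on log2(TPM + 1), Benjamini-Hochberg adjusted p below 0.05), which only 0.00537% of all tested genes did. The lowest adjusted p of a member was 0.0928. At an unadjusted p below 0.05, 39 members were higher (70.9%, against 13.4% of all tested genes) and 1 was lower (1.82%, against 4.46%). Among the 51 members with at least 1 TPM in both groups, limma had 37 higher and 0 lower at that level. The count-based alternative, voom on the recovered reads, also called 0 members after adjustment and had 37 higher at an unadjusted p below 0.05, against 14.1% of all genes in that fit. With 2 libraries against 2, an exact permutation test of 1 gene cannot go below a 2-sided p of 0.333. In bulk RNA of this kind, a different number of cells and a different amount of RNA per cell cannot be told apart.

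**Figure D1:**
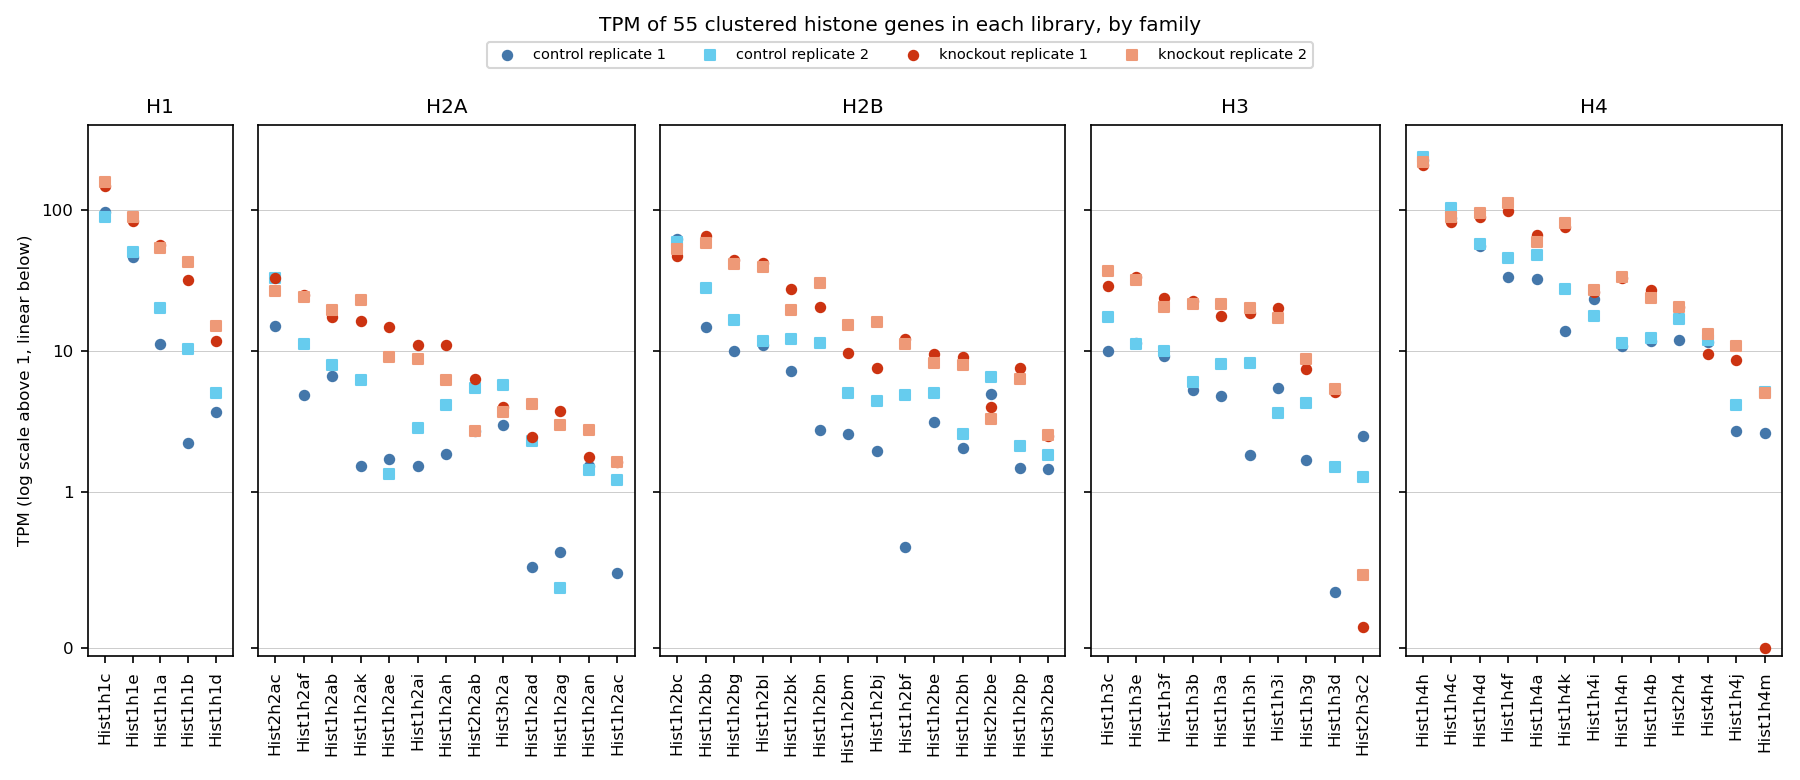
TPM of each of the 55 members (x axis, by family and ordered by mean level) in the 4 libraries (y axis, log scale above 1 TPM and linear below). Points are single libraries, blue for controls and red for HDAC KO, and the red points lie above the blue for 45 members but not for Hist1h4h, Hist1h4c or Hist1h2bc, which are among those with the highest levels.

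The plot of single libraries shows that the controls themselves were spread. Control replicate 2 was above control replicate 1 for 46 of the 55 members, with a median difference of 0.46 on the log2(TPM + 1) scale, and for 72.4% of all tested genes, with a median of 0.28. The HDAC KO libraries lay closer together, with replicate 2 above replicate 1 for 31 members and a median difference of 0.02.

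The linker histones bind the DNA between nucleosomes. All 5 H1 genes lay above both controls in both HDAC KO libraries, and all 5 were higher at an unadjusted p below 0.05, with a median difference of 1.43. Their summed level was 160 and 174 TPM in the controls against 332 and 358 TPM in the HDAC KO libraries. Hist1h1c, the H1 gene with the highest level, had 97.1 and 88.7 TPM in the controls against 148 and 158 TPM in the HDAC KO libraries (log2 difference 0.71, SE 0.16, limma adjusted p = 0.124). For Hist1h1e the values were 46.3 and 50.003 TPM against 84.0 and 88.8 TPM (0.83, SE 0.15, limma adjusted p = 0.106). In both of these genes the 2 libraries of a group lay close together and far from the other group. The gaps were wider for the H1 genes with lower control levels. Hist1h1a had 11.1 and 20.2 TPM against 56.7 and 53.2 TPM (1.81, SE 0.29, limma adjusted p = 0.105). Hist1h1b had the largest difference of all members, with 2.21 and 10.3 TPM against 32.0 and 42.6 TPM (2.65, SE 0.60, limma adjusted p = 0.125), and its controls differed widely from each other. Hist1h1d had 3.66 and 5.01 TPM against 11.8 and 14.9 TPM. Its GENCODE model is 7425 bases long and runs 4884 bases past the stem-loop. Of all 50-base windows of the Hist1h1a and Hist1h1b models, none was shared with another gene.

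Histones H2A and H2B form the dimers that flank the H3-H4 core of the nucleosome. Of the 13 H2A genes, 10 lay above both controls in both HDAC KO libraries, none lay below and 3 overlapped. Their summed level was 41.9 and 83.3 TPM in the controls against 148 and 135 TPM in the HDAC KO libraries, and their median difference was 1.24. Hist2h2ac had the highest level of the family, with 14.9 and 33.1 TPM against 33.0 and 26.7 TPM (log2 difference 0.40, SE 0.38, limma adjusted p = 0.649). Its groups overlapped, since control replicate 2 was as high as the HDAC KO libraries. Hist1h2af had 4.87 and 11.2 TPM against 24.9 and 23.97 TPM (1.58, SE 0.37, limma adjusted p = 0.131). Hist1h2ab had 6.64 and 7.91 TPM against 17.4 and 19.5 TPM (1.24, SE 0.21, limma adjusted p = 0.106). Both were clear of overlap, with the controls of Hist1h2ab the closer pair. Hist1h2ae had the widest gap of the family, with 1.70 and 1.33 TPM against 14.9 and 9.001 TPM (2.33, SE 0.33, limma adjusted p = 0.0988). The control values rest on 8 and 5 reads. Hist3h2a, which lies outside the large cluster, had 2.99 and 5.75 TPM against 3.97 and 3.68 TPM (-0.11, SE 0.35, limma adjusted p = 0.909), with the HDAC KO values inside the control range.

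Among the 14 H2B genes, 12 lay above both controls in both HDAC KO libraries and 2 lay below, with a median difference of 1.52. Their summed level was 126 and 171 TPM in the controls against 308 and 312 TPM in the HDAC KO libraries. Hist1h2bb had 14.7 and 28.0 TPM against 65.2 and 58.6 TPM (log2 difference 1.56, SE 0.31, limma adjusted p = 0.110). Hist1h2bg had 9.92 and 16.6 TPM against 44.3 and 41.0 TPM (1.65, SE 0.27, limma adjusted p = 0.105). Hist1h2bl had 10.98 and 11.8 TPM against 42.2 and 39.5 TPM (1.76, SE 0.17, limma adjusted p = 0.0928). These 3 genes were far above the controls in both libraries, and Hist1h2bl shared the lowest adjusted p of any member. In 2 H2B genes the values went the other way. Hist1h2bc had the highest control level of the family, with 62.1 and 59.1 TPM against 47.1 and 52.5 TPM (-0.28, SE 0.16, limma adjusted p = 0.430). Hist2h2be had 4.91 and 6.496 TPM against 3.998 and 3.29 TPM (-0.52, SE 0.28, limma adjusted p = 0.407). In both genes the HDAC KO libraries lay just below the controls. Their annotated transcripts of 1156 and 2620 bases hold no stem-loop and contain 1 and 3 matches to the poly(A) signal hexamers AATAAA or ATTAAA. The models of Hist1h2bl and Hist1h2bn, with higher HDAC KO values, also hold no stem-loop. Those models are only 381 bases long, and a stem-loop past their ends could not be looked for. Hexamer matches also occurred in an H2B gene with higher HDAC KO values. Hist1h2be, with a model of 2506 bases, has 4 hexamer matches after its stem-loop and differed by 0.98. Its matches were counted only past the stem-loop, and those of Hist1h2bc and Hist2h2be over the whole transcript.

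Histone H3 pairs with H4 in the core of the nucleosome and carries many of the acetylated lysines. Both HDAC KO libraries lay above both controls for 9 of the 10 H3 genes, all 9 with a difference of at least 1 and an unadjusted p below 0.05 by limma. The summed H3 level was 52.4 and 71.6 TPM in the controls against 178 and 184 TPM in the HDAC KO libraries. Hist1h3c had 9.96 and 17.5 TPM against 29.0 and 36.8 TPM (log2 difference 1.24, SE 0.30, limma adjusted p = 0.137). Hist1h3e had 11.4 and 11.2 TPM against 33.2 and 31.6 TPM (1.44, SE 0.17, limma adjusted p = 0.0928). Hist1h3f had 9.13 and 9.94 TPM against 23.8 and 20.6 TPM (1.14, SE 0.20, limma adjusted p = 0.106). The controls of Hist1h3e and Hist1h3f lay close together, and those of Hist1h3c did not. Hist1h3b had 5.30 and 6.03 TPM against 22.5 and 21.6 TPM (1.79, SE 0.20, limma adjusted p = 0.0928). Hist2h3c2 was the only H3 gene below its controls and had the lowest difference of all members, with 2.49 and 1.28 TPM against 0.137 and 0.469 TPM (-1.13, SE 0.38, limma adjusted p = 0.218). Those values rest on 17 and 7 reads in the controls against 1 and 4 reads in the HDAC KO libraries.

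Histone H4 was the largest part of the summed histone level and had the lowest median difference of the 5 families. The family sum was 521 and 597 TPM in the controls against 746 and 786 TPM in the HDAC KO libraries, with a median difference of 0.66. Of its 13 genes, 9 lay above both controls, 1 lay below and 3 overlapped. The H4 genes with the highest control levels were not higher in the HDAC KO libraries. Hist1h4h had 225 and 236 TPM against 210 and 218 TPM (log2 difference -0.11, SE 0.16, limma adjusted p = 0.785). Hist1h4c had 87.1 and 103 TPM against 81.9 and 89.1 TPM (-0.15, SE 0.17, limma adjusted p = 0.703). Hist1h4h lay just below its controls in both HDAC KO libraries, and Hist1h4c overlapped. Hist1h4d had 55.3 and 57.4 TPM against 89.7 and 95.3 TPM (0.71, SE 0.15, limma adjusted p = 0.119). Hist1h4f had 33.6 and 45.4 TPM against 97.5 and 112 TPM (1.39, SE 0.20, limma adjusted p = 0.0988). Hist1h4n had 10.8 and 11.3 TPM against 33.1 and 33.6 TPM (1.51, SE 0.17, limma adjusted p = 0.0928). In these 3 genes both HDAC KO libraries lay well above the controls, and the pairs of Hist1h4n nearly coincided. Hist1h4k had the widest gap of the family, with 13.9 and 27.6 TPM against 75.2 and 80.1 TPM (1.93). Hist1h4m was erratic, with 2.60 and 5.12 TPM against 0 and 5.06 TPM (-0.93, SE 0.87, limma adjusted p = 0.637). It rests on 7, 11, 0 and 17 reads, and its groups overlapped, with only HDAC KO replicate 1 without a read.

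**Figure D2:**
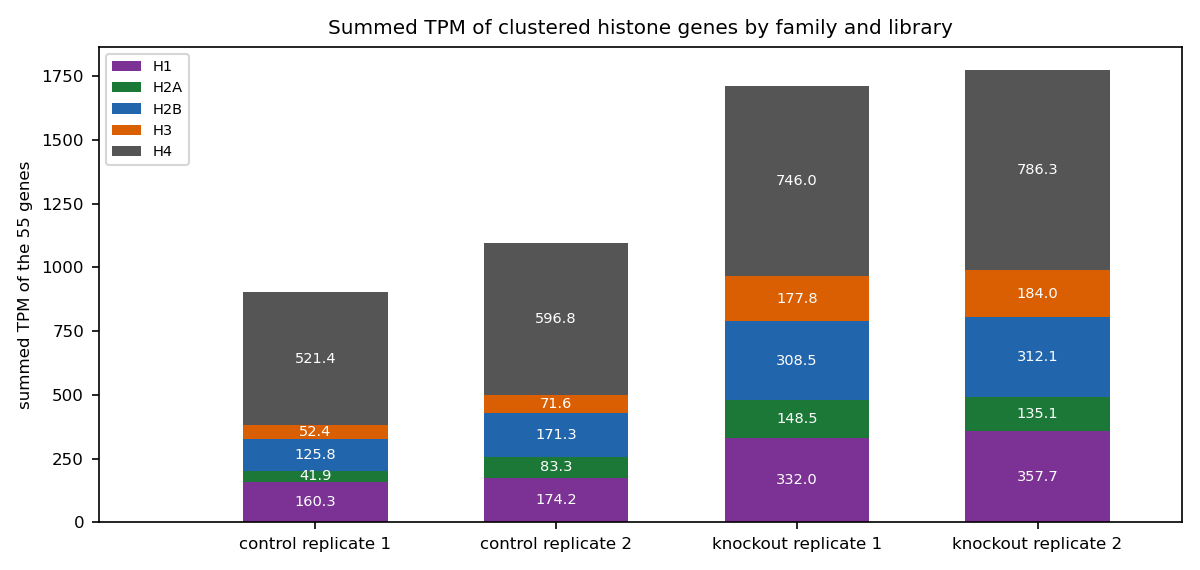
Summed TPM of the members of each family (y axis, linear scale) in the 4 libraries (x axis), stacked in 1 bar per library, with each sum written in its segment. H1, H2A, H2B, H3 and H4 all have larger sums in each HDAC KO bar than in either control bar, and H4 is the tallest segment throughout.

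As the plot of family sums shows, the make-up of the histone total differed between the groups. H4 was 57.8% and 54.4% of the sum in the controls against 43.6% and 44.3% in the HDAC KO libraries. H3 was 5.81% and 6.52% in the controls against 10.4% in each HDAC KO library. Neither share overlapped between the groups.

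Members inside and outside the Hist1 cluster had different values. The Hist1 cluster on chromosome 13 falls into a first block of 19 members (chr13:21715763-22043676, GRCm38.p6) and a second of 28 members (chr13:23531050-23764406). In the first block, 18 of the 19 members lay above both controls in both HDAC KO libraries, with a median difference of 1.53, and Hist1h4m was the exception. In the second, 25 of 28 did so, with a median of 1.26. The first block gave 10.7% and 13.7% of the summed level in the controls against 21.7% and 22.9% in the HDAC KO libraries. The 8 members outside Hist1 went both ways, from -1.13 for Hist2h3c2 to 0.48 for Hist2h4, with a median of 0.01. Of these 8, 2 lay above both controls (25.0%), 2 lay below (25.0%) and 4 overlapped. Among all tested genes, 36.7% lay above and 14.3% below, against 94.7% and 89.3% above in the 2 Hist1 blocks. Hist2h4 was the highest of them in difference, with 12.01 and 16.9 TPM against 20.3 TPM in each HDAC KO library, and Hist4h4, the lone gene of its cluster on chromosome 6, had 11.5 and 12.02 TPM against 9.56 and 13.1 TPM. All 39 members that were higher at an unadjusted p below 0.05 by limma lay in Hist1, which holds 47 of the 55 members. Some members outside Hist1 rest on few reads: Hist2h3c2 on 17 and 7 in the controls against 1 and 4, Hist3h2ba on 6 and 6 against 11 and 13. Hist2h2ab rests on 8 and 13 against 20 and 10. Hist2h2aa1, Hist2h2aa2, Hist2h2bb, Hist2h3b and Hist2h3c1 had no values here, so Hist2 was seen only in part. The difference between Hist1 and the other clusters was not tested as such.

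**Figure D3:**
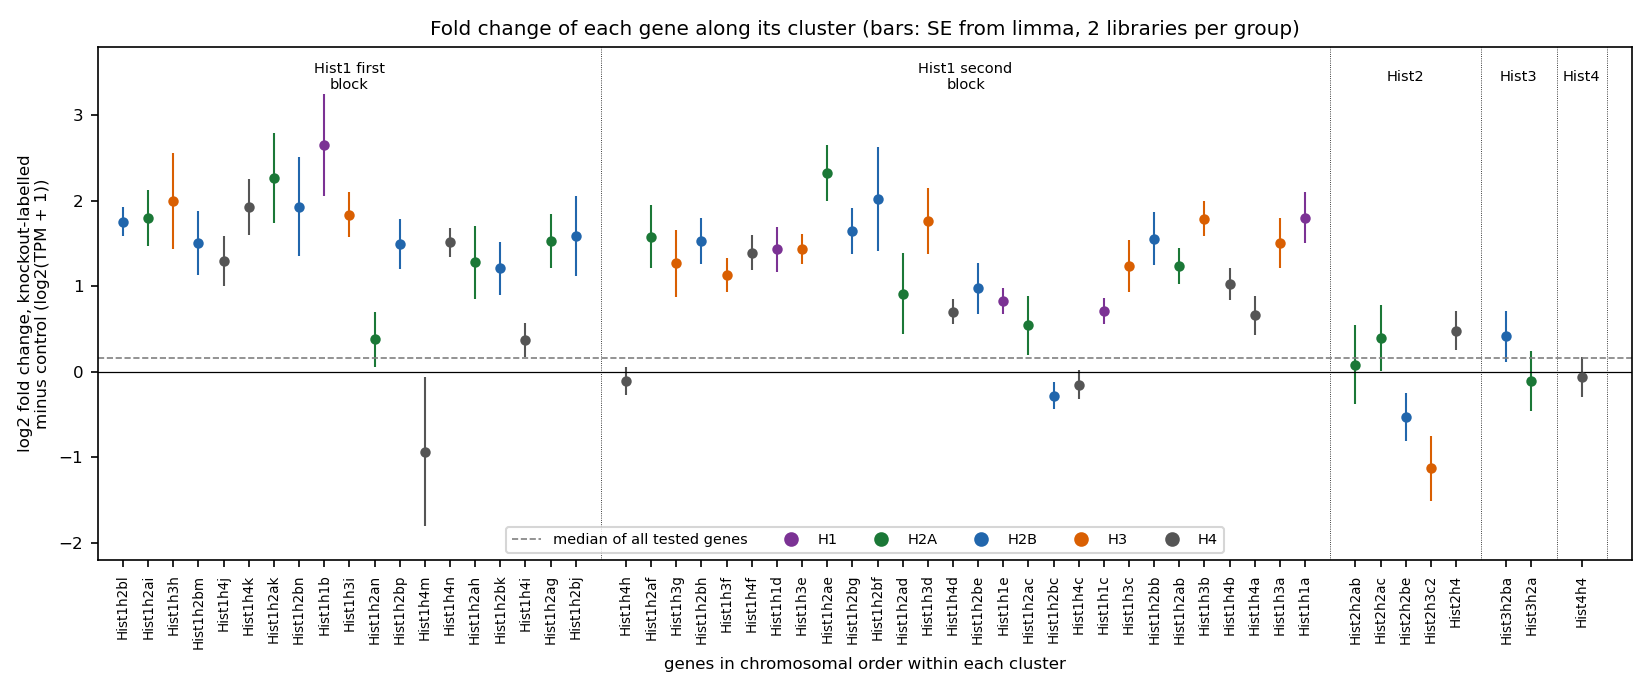
Log2 difference of each member, HDAC KO minus control (y axis, log2(TPM + 1) scale), in genome order along the clusters (x axis, rank order and not to distance), with error bars of 1 SE and colours for the families. Most points of both Hist1 blocks lie near or above 1, and those of Hist2, Hist3 and Hist4 lie between -1.13 and 0.48.

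Many H2A and H2B genes stand head to head and share the stretch between their starts. There were 9 such pairs among the members, with 175 to 301 bases between the genes, and in 7 of them both genes lay above both controls in both HDAC KO libraries. Hist1h2ai and Hist1h2bl differed by 1.80 and 1.76 on the log2 scale, Hist1h2ah and Hist1h2bk by 1.28 and 1.21, and Hist1h2ag and Hist1h2bj by 1.53 and 1.59. On this log2(TPM + 1) scale the genes of these 3 pairs had nearly equal differences, although the pseudocount weighs on low levels. The HDAC KO mean over the control mean was 6.69 for Hist1h2ag and 3.69 for Hist1h2bj, and 4.53 for Hist1h2ai and 3.59 for Hist1h2bl. It was 2.87 for Hist1h2ah and 2.42 for Hist1h2bk. The control values of Hist1h2ag rest on 2 and 1 reads and those of Hist1h2ai on 4 and 6. Hist1h2ak and Hist1h2bn had 2.26 and 1.93. The genes of 3 other pairs were less alike: Hist1h2an and Hist1h2bp had 0.38 and 1.4995, Hist1h2ad and Hist1h2bf had 0.92 and 2.02, and Hist1h2ae and Hist1h2bg had 2.33 and 1.65. The pairs of Hist1h2bc and Hist2h2be split in sign: Hist1h2ac and Hist1h2bc had 0.54 and -0.28, and Hist2h2ac and Hist2h2be had 0.40 and -0.52. The H2B gene had the higher TPM in 8 of the 9 pairs in both groups, with Hist2h2ac above Hist2h2be as the exception.

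Promoters were compared by sequence, since genes of a histone family are known to share short promoter elements. RefSeq promoters (GRCm38.p6) could be matched to 49 of the 55 members. Motifs were searched on both strands of the window from 250 bases before to 50 after the start. CCAAT was present in 40 of the 49 member promoters and in 37.4% of all 32851, TATAAA in 31 and in 13.6%, the octamer ATTTGCAT in 10 and in 1.7%, AAACACA in 5 and in 7.2%, and GGTCCG in 13 and in 8.3%. GGTCCG was picked after the promoters had been read, and it can overlap CCAAT by its complement. Windows of head-to-head genes can overlap, so that 1 site can count for both genes, as the ATTTGCAT match of Hist1h2ae and Hist1h2bg does. The motifs fell by family: CCAAT was in every matched H1, H2A, H2B and H3 promoter but in 3 of 12 H4 promoters, GGTCCG was in 11 of 12 H4 promoters, ATTTGCAT was in 6 of 13 H2A and 4 of 12 H2B promoters, and AAACACA was in 3 of 4 H1 promoters. The 200 bases before the start are shown for 5 members well above their controls and for Hist1h4c, whose groups overlapped, with matches in capitals, read 5′ to 3′ along the gene's strand.
Hist1h1a, chr13:23763468-23763667, plus strand: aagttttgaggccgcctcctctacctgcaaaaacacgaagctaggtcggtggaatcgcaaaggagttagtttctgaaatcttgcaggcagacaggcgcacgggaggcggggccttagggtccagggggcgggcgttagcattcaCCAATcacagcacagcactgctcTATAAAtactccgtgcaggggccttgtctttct
Hist1h2bg, chr13:23571200-23571399, plus strand: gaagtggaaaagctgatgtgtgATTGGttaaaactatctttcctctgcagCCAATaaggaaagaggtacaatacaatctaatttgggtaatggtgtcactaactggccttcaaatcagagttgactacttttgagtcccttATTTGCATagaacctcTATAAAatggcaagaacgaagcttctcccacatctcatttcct
Hist1h2bl, chr13:21716184-21716383, minus strand: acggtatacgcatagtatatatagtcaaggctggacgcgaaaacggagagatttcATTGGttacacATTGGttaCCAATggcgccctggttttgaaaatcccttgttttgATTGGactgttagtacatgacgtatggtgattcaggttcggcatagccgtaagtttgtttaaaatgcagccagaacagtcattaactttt
Hist1h3b, chr13:23752145-23752344, plus strand: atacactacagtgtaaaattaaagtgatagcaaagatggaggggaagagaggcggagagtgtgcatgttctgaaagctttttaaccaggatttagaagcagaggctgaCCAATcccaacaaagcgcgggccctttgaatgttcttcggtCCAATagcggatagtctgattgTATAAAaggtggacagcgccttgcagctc
Hist1h4k, chr13:21750554-21750753, minus strand: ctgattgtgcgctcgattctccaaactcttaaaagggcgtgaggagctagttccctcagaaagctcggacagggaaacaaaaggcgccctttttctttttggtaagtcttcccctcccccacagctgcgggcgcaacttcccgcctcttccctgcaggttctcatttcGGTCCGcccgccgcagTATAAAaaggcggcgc
Hist1h4c, chr13:23698459-23698658, minus strand: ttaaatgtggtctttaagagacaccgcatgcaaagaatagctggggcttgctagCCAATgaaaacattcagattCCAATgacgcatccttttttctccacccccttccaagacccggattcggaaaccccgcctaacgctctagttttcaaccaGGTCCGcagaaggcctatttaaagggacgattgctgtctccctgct
Hist1h2bg holds CCAAT on both strands, the octamer and TATAAA, Hist1h2bl holds 4 CCAAT matches and none of the others, and Hist1h4k pairs GGTCCG with TATAAA. Hist1h4c holds GGTCCG as well, with 2 CCAAT matches and no TATAAA. A match describes these letters in this window and shows no binding.

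The end of the annotated transcript was set beside the differences because poly(A) RNA was sequenced. The split at 100 bases past the stem-loop was chosen after the values were seen. The 19 members whose model ends within 100 bases of the stem-loop had a median difference of 1.39, and 15 of them were at least 1. For the 21 members whose model runs on for 100 bases or more, the median was 0.71, and 8 were at least 1. The 15 models without a stem-loop had a median of 1.80, with Hist1h2bc and Hist2h2be at the low end. Among the longer models were Hist1h1c, Hist1h1e, Hist1h4d and Hist1h4c, all with high control levels. Hist2h3c2, Hist2h4, Hist3h2a, Hist3h2ba and Hist4h4, which lie outside Hist1, were also among them, so the split is not independent of the cluster. Hist1h4h, with the highest level of all members and a difference of -0.11, was among the models that end within 100 bases. A model's end says what was annotated and not where the reads of these libraries ended.

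**Figure D4:**
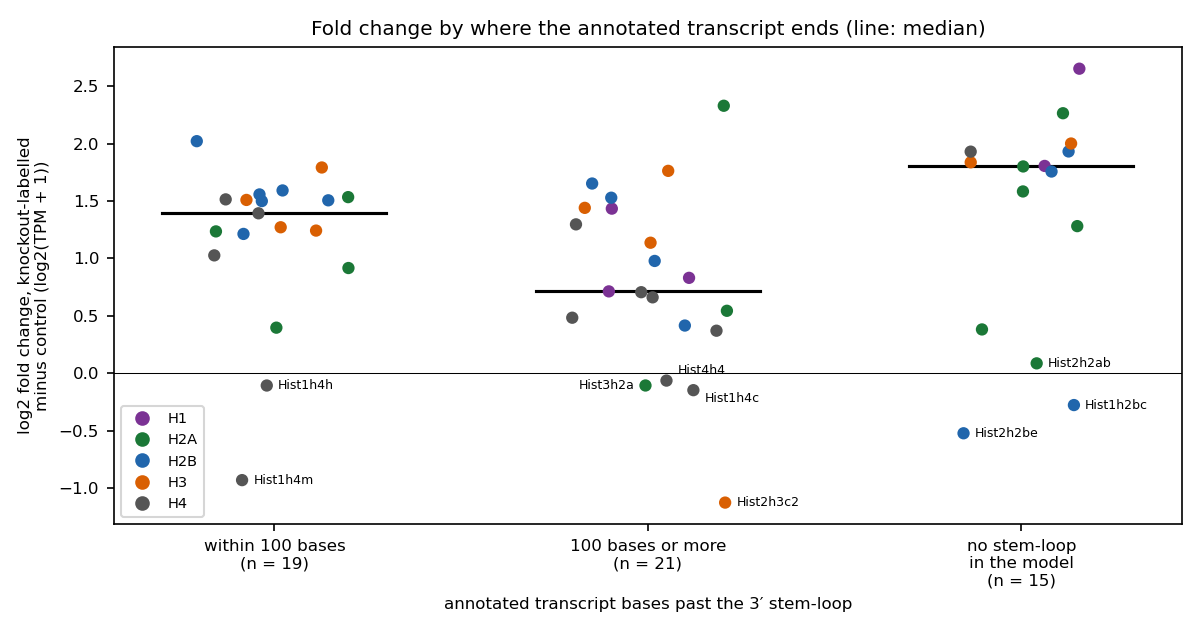
Log2 difference of each member, HDAC KO minus control (y axis, log2(TPM + 1) scale), by where its GENCODE M21 transcript ends relative to the stem-loop (x axis, points spread sideways at random, lines at the medians of 1.39, 0.71 and 1.80). Members below 0.2 are named, and colours give the families.

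Depth and sequence likeness limit single members. Whole reads could be recovered for all 55, with totals of 5548 and 5137 member reads in the controls against 10523 and 12922 in the HDAC KO libraries. A control library held fewer than 10 reads for 21 members. In 25 members more than 50% of the 50-base windows also occur in another gene, so reads could be split or dropped between copies. Among them were Hist1h2bl (82.8%), Hist1h4n (85.6%), Hist1h3e (73.4%) and Hist1h3b (60.4%), which had the lowest limma adjusted p of the members. In addition, 16 members share exon bases with another annotated gene. Among these are Hist1h1e (25.7% of its exon bases) and Hist1h2be (11.2%), which overlap each other and Gm11398, so their values are not independent. For the 7 members with fewer than 10% of windows shared, the median difference was 0.71, and 5 lay above both controls. The 31 members with a mean of at least 50 reads had a median of 1.14, with 24 above both controls. Members with a mean of at least 20 TPM had a median of 1.24, and the others 1.29.

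Factors that make histone mRNA had smaller differences than most members. The list of the histone locus body and 3′ end processing had 28 of 29 genes tested. The median difference was 0.24. By limma 1 gene was higher and none was lower at an unadjusted p below 0.05, against 13.4% and 4.46% of all tested genes. Both HDAC KO libraries lay above both controls for 13 and below for 1, against 36.7% and 14.3% of all tested genes. Slbp had 6.52 and 7.30 TPM in the controls against 8.41 and 9.27 TPM in the HDAC KO libraries (log2 difference 0.32, SE 0.23, limma adjusted p = 0.535). Npat, the coactivator that links cyclin E-Cdk2 to histone transcription, had 7.51 and 10.2 TPM against 12.7 and 11.9 TPM (0.44, SE 0.24, limma adjusted p = 0.404). Both were above their controls in each HDAC KO library, by far less than most histone genes. Lsm10, a subunit of the snRNP that directs cleavage after the stem-loop, differed by 0.37, and Lsm11, its partner, by 0.14. Mblac1, a nuclease that acts on histone mRNA, was the single gene with an unadjusted p below 0.05, with 1.71 and 3.00 TPM against 5.66 and 4.84 TPM (0.92, limma adjusted p = 0.230).

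Most cell cycle genes had higher values in the HDAC KO libraries. Of 40 genes of S phase entry and DNA replication, an unadjusted p below 0.05 by limma was found for 24 that were higher and 1 that was lower, 35 lay above both controls, and the median difference was 0.74. Their summed level was 182 and 244 TPM in the controls against 368 and 390 TPM in the HDAC KO libraries. Rrm2, a subunit of the enzyme that makes deoxynucleotides, had 10.6 and 12.1 TPM against 26.3 and 25.3 TPM (1.12, limma adjusted p = 0.106). Uhrf1, which brings the maintenance DNA methyltransferase to new DNA, had 3.19 and 7.33 TPM against 18.5 and 20.7 TPM (1.80, limma adjusted p = 0.113). Both genes were free of overlap, and the controls of Uhrf1 differed from each other the way those of many histone genes did. All 20 mitosis genes lay above both controls, 19 of them with an unadjusted p below 0.05 by limma, and the median was 1.08. Of all tested genes, 36.7% lay above both controls, and 13.4% were higher and 4.46% lower at that p. Top2a, which untangles DNA in dividing cells, had 4.44 and 8.40 TPM against 17.2 and 20.3 TPM (1.46, limma adjusted p = 0.123). None of the genes of these lists passed the adjusted threshold.

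Histone chaperones and a list of histone variants were set beside the members, and the timing of these genes in the cell cycle was not tested. Of 22 chaperone genes, 8 were higher and none was lower by limma at an unadjusted p below 0.05, against 13.4% and 4.46% of all tested genes. The median difference of the chaperone genes was 0.30. Chaf1b, a subunit of the factor that loads H3-H4 on replicating DNA, had 1.34 and 2.68 TPM against 5.73 and 5.70 TPM (1.19, limma adjusted p = 0.167). Npm1, an abundant nucleolar chaperone, had 66.3 and 91.0 TPM against 145 and 160 TPM (0.96, limma adjusted p = 0.120). For the 11 variants the median was 0.59. By limma 4 were higher at an unadjusted p below 0.05, against 13.4% of all tested genes. Both HDAC KO libraries lay above both controls for 9 variants, against 36.7% of all tested genes. H2afx, the variant phosphorylated at DNA breaks, had 13.8 and 13.4 TPM against 25.3 and 32.4 TPM (1.02, limma adjusted p = 0.110). H3f3b, which encodes the replacement histone of the H3 family, had 81.6 and 99.3 TPM against 169 and 155 TPM (0.84, limma adjusted p = 0.119).

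Hdac1 had 19.3 and 18.6 TPM in the controls against 22.9 and 22.5 TPM in the HDAC KO libraries, and Hdac2 20.2 and 24.1 TPM against 23.5 and 20.9 TPM, so that the targeted transcripts do not check the labels in whole glomeruli. Marker transcripts of some cell types also differed between the groups, although no marker passed the adjusted threshold by limma. Cells were not counted, so a change in cell number was not tested. Of 16 leukocyte markers 13 were tested, all 13 lay above both controls with a median difference of 2.24, and their sum was 64.4 and 158 TPM in the controls against 689 and 794 TPM in the HDAC KO libraries. Proximal tubule markers lay below both controls for 18 of 20, with sums of 50579 and 13050 TPM against 7072 and 8195 TPM. The control sums differed far more than the single tubular markers, whose median difference, control replicate 2 minus replicate 1, was -0.36 on the log2 scale. Podocyte markers lay below both controls for 7 of 16, with sums of 1117 and 1400 TPM against 493 and 800.3 TPM. Nphs1 was detected in every library. Among all tested genes, 36.7% lay above both controls and 14.3% below. Endothelial sums were 384 and 854 TPM against 327 and 691 TPM, and mesangial and smooth muscle sums 226 and 292 TPM against 254 and 317 TPM. Red cell precursor sums were 135 and 188 TPM against 41.5 and 106 TPM. Of the 7 red cell precursor genes tested, 1 lay above both controls (Epb42) and 1 below (Slc4a1). Slc4a1 alone had 90.8 and 55.8 TPM in the controls against 16.8 and 15.3 TPM in the HDAC KO libraries. Control replicate 1 was the lower control for 46 of the 55 members and for 72.4% of all tested genes. It had the lower leukocyte, endothelial, podocyte, mesangial and smooth muscle, and red cell precursor sums, and the higher proximal tubule sum. The part of cell make-up in the histone differences was not tested. Mitochondrially encoded genes took 38.7% to 46.5% of the TPM, and recovered totals were 12876939 to 20943138 reads per library.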

How the data were processed

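TPM values of 22809 Ensembl genes stood in the table the authors deposited, with 1 column for each of the 4 libraries. Per the submitters' processing notes, the reads' handling involved fastp (0.20), STAR (2.7.9), featureCounts (2.0.0) and DESeq2 (1.30.1) on the build GRCm38.p6, and which tool did which step is not stated there. Dividing each TPM by what 1 read is worth over the GENCODE M21 exon union gave whole reads, within a relative tolerance of 1e-06, for 22176 genes (97.2%). Strand use in counting is not given in the sources used here. The comparison was fitted with limma 3.58.1 in R 4.3.3 (trend, all 4 libraries, no block) on log2(TPM + 1) for the 18612 genes with a mean of at least 1 TPM, and p-values were adjusted over all of them. The fit was tested on simulated data. Tables and figures used Python 3.11.15 with pandas 2.3.3. Named members were, in each family, the 3 with the highest mean TPM and the 2 with the smallest p in each direction. Other members and list genes are named as examples or exceptions, chosen after their values were seen. The members and the gene lists were chosen with earlier results of these data known. Alternatives covered the pseudocount, filter, scaling, variance model, replicate block, counts and single libraries.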

Additional observations from a re-analysis of the deposited data

How the results depend on the processing

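Across 14 alternatives, the count of members past the adjusted threshold stayed at 0 except without control replicate 2, where 35 members were called by limma, all higher. In that fit 11.5% of all tested genes were called, and 26 pathway genes. Leaving out single libraries gave a median difference of 1.06 to 1.55. In the libraries left in, 45 to 47 members had all HDAC KO values above all control values, and 4 to 8 had them below. The 47 above came without control replicate 2 and the 8 below without control replicate 1, each against a single control. Groups separate more easily with 1 library left in a group, and the matching shares of all tested genes are not given. The share of all tested genes higher at an unadjusted p below 0.05 also moved, from 5.18% without HDAC KO replicate 2 (31 members) to 26.6% without control replicate 2 (43 members). With a filter at a mean of 5 TPM, which kept fewer members, 2 lay below both controls and 0 were lower at an unadjusted p below 0.05. The members lower at that level numbered 2 under median-ratio scaling and 3 under quantile normalization. In those fits 7.19% and 8.9% of all tested genes were lower. The median difference was 0.84 with a pseudocount of 5 and 1.05 under quantile normalization. Median-ratio scaling moved the median of all tested genes from 0.17 to -0.03, and the members' median lay 1.11 above that of all genes as deposited. It also moved the share of all genes higher at an unadjusted p below 0.05 from 13.4% to 9.54%, and the share lower from 4.46% to 7.19%. With a replicate block, 0 members were called, an unadjusted p below 0.05 was found for 40 that were higher and 1 that was lower (15.8% and 5.32% of all tested genes in that fit), and the lowest adjusted p of a member was 0.0618. The same-numbered libraries deviated together with r = 0.14 across genes, over 2 pairs only, which does not establish a pairing, and the block changed no call of a named member. Of 332 values of named members under the alternatives, 4 changed sign: Hist1h4h was 0.015 under quantile normalization, and with single libraries left out Hist2h2ac ranged from -0.15 (without control replicate 1) to 0.94, Hist3h2a from -0.49 to 0.27 (without control replicate 2) and Hist1h4m from -2.23 to 0.37 (without HDAC KO replicate 1). Another 15 passed the threshold, all without control replicate 2. The causes were not tested. Depth limits the 21 members with fewer than 10 reads in a control.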

Other observations

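Histone genes annotated as pseudogenes in the clusters were left out of the members. Hist1h2al had 31.3 and 19.9 TPM in the controls against 24.3 and 33.2 TPM in the HDAC KO libraries (log2 difference 0.18, SE 0.28, limma adjusted p = 0.796), so that its groups overlapped, although its level was above that of most H2A members. Hist3h2bb-ps had 1.93 and 1.21 TPM against 3.30 and 2.06 TPM (0.51, SE 0.35, limma adjusted p = 0.511), with both HDAC KO libraries above both controls.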
